A study of Mus musculus with 4 samples.

Results

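The genes described are 9 members of the transforming growth factor beta (TGF-beta) pathway, taken by symbol from a named list out of 53379 Ensembl genes: the ligand genes Tgfb1, Tgfb2 and Tgfb3, the receptor genes Tgfbr1 and Tgfbr2, the signal transducer genes Smad3, Smad4 and Smad7, and the target gene Tgfbi. All 9 were found and all 9 passed the filter on low counts. Their transcripts were counted in 4 bulk RNA-seq libraries of tumor cells from MC38, a colon adenocarcinoma line of the mouse that here carried GFP. For each tumor 50000 cells were placed under the skin of C57BL/6 mice below the right shoulder. Every mouse received the same sub-optimal course of an anti-PD-1 antibody, 100 µg at a time on days 12, 15, 18 and 22, and no library came from an untreated mouse. Cancer cells were sorted from tumors labelled non-responder (2 libraries) or responder (2 libraries). The labels do not say how response was scored, nor whether both libraries of a group stem from different animals. A p-value here therefore measures the spread between libraries only, and that spread may be technical. All libraries came from 1 cell line, and the age and sex of the mice are not in the labels.

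TGF-beta ligands are secreted in a latent form, bound to their own propeptide and often to a latent TGF-beta binding protein in the matrix, and integrins or proteases release them. The free ligand binds the type II receptor (Tgfbr2), which phosphorylates the type I receptor (Tgfbr1). The type I receptor then phosphorylates SMAD2 and SMAD3, which enter the nucleus with SMAD4, while SMAD7 is induced by the pathway and inhibits it. In tumors TGF-beta is known both for restraining growth of epithelial cells and for acting on fibroblasts, matrix and T cells, and many colorectal tumors with defective mismatch repair lose function of the type II receptor.

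The 250 bases before the start site are shown for 4 members, because the ligand genes Tgfb1 and Tgfb2 were far apart in level and because Tgfbr2 and Smad3 both had lower values in responder libraries. The windows are from RefSeq on GRCm38.p6. Windows of 6 members were used, and the other members were not searched. They are chr7:25686752-25687001 on the plus strand for Tgfb1, and on the minus strand chr1:186705990-186706239 for Tgfb2, chr9:116175364-116175613 for Tgfbr2 and chr9:63757995-63758244 for Smad3. Capitals mark, on either strand, the SMAD box CAGAC, the GC box GGGCGG that Sp1-type factors bind, and the TATA box TATAAA.
Tgfb1: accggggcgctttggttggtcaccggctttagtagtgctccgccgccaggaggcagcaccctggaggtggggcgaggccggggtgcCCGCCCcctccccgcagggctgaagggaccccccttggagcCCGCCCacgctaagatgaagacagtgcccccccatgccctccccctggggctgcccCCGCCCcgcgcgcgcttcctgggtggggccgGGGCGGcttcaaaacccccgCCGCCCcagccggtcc
Tgfb2: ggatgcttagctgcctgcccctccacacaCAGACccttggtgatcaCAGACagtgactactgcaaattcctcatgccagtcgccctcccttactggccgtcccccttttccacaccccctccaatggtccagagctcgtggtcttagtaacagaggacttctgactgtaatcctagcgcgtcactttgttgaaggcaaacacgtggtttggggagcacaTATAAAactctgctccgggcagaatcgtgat
Tgfbr2: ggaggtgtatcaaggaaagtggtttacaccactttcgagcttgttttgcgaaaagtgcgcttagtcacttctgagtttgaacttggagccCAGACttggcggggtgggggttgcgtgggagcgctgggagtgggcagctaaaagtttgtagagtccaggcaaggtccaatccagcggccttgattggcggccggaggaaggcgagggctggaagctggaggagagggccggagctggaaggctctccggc
Smad3: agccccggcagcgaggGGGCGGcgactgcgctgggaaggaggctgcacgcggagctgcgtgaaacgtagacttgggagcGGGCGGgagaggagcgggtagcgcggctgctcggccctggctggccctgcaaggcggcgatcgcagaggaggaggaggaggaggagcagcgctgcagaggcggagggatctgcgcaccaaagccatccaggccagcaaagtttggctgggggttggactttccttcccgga
The Tgfb1 window held 5 GC boxes and no SMAD box, at a GC content of 75.2%. The Tgfb2 window held 2 SMAD boxes and a TATA box that begins 31 bases before the start site, no GC box, and a GC content of 53.6%. The Tgfbr2 window held 1 SMAD box and the Smad3 window 2 GC boxes. Of 32851 mouse windows of that length, 42.2% held a SMAD box, 32.7% a GC box and 12.4% a TATA box, so these short matches are common, and they describe letters and not binding. In the windows not shown, that of Tgfbi held 2 SMAD boxes and 1 GC box, and those at the 2 start sites of Tgfbr1 held 2 GC boxes and 1 SMAD box, respectively.

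Tgfb3, the gene of the third TGF-beta isoform, had the highest mean level of the members over the 4 libraries. Among the members it also had the lowest p in the comparison of responders with non-responders. It lies on chromosome 12 from 86056745 to 86079041 (mm10, minus strand, ENSMUSG00000021253). Levels are CPM, read counts relative to library size after scaling by the trimmed mean of M-values (TMM), and values are given in the order replicate 1, replicate 2 of each group. Tgfb3 had 509 and 258 CPM in non-responder replicates 1 and 2, and 177 and 134 CPM in responder replicates 1 and 2. Both responder libraries were below both non-responder libraries, and non-responder replicate 1 stood well above the other 3. The level was 2.46-fold lower in responders (log2 fold change -1.30, SE 0.34). In the quasi-likelihood test of edgeR the Benjamini-Hochberg adjusted p over all 13792 tested genes was 0.631 (unadjusted p = 0.00746), so Tgfb3 did not pass. DESeq2 did call it (adjusted p = 0.0199, log2 fold change -1.31) and limma-voom did not (adjusted p = 0.661). Left out singly, the libraries gave log2 fold changes of -0.72 on leaving out non-responder replicate 1, -1.71 on leaving out non-responder replicate 2, -1.52 on leaving out responder replicate 1 and -1.11 on leaving out responder replicate 2. It passed edgeR's test without non-responder replicate 2 (adjusted p = 0.000132) or responder replicate 1 (adjusted p = 0.0324), and also when no low-count filter was used (adjusted p = 4.37e-06). In bulk RNA fewer cells of a type and less RNA per cell cannot be told apart. The summed fibroblast markers were likewise lower in responders, at 12467 and 18326 against 11143 and 9599 CPM. Most of that sum was Col3a1, with 7598 and 13391 against 6897 and 5792 CPM. Of the 11 markers tested 9 were lower, and Col1a2 and Col6a3 were not (log2 fold change 0.24 and 0.05). The part of fibroblasts in the values of Tgfb3 was not tested.

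Tgfb1, the isoform best known from immune cells and platelets, went the other way by a small amount. It lies on chromosome 7 from 25687002 to 25705077 (plus strand, ENSMUSG00000002603). It had 57.1 and 59.2 CPM among non-responders, against 71.6 and 67.1 CPM among responders. The groups did not overlap, and the libraries of a group lay close together. The log2 fold change was 0.25 (SE 0.16), 1.19-fold higher, and did not pass (edgeR adjusted p = 0.841). It stayed between 0.20 and 0.30 when each library was left out in turn.

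Tgfb2, the isoform known for roles in development and the eye, was scarce. It lies on chromosome 1 from 186622792 to 186705989 (minus strand, ENSMUSG00000039239). It had 6.33 and 0.67 CPM among non-responders, against 2.23 and 0.89 CPM among responders. Only non-responder replicate 1 was high, with 131 reads against 15, 45 and 17 in the others in the same order, and the groups overlapped. The log2 fold change of -1.16 (SE 1.148, edgeR adjusted p = 0.903) turned to 1.21 on leaving out non-responder replicate 1. It was -2.01 on leaving out non-responder replicate 2, where it passed (edgeR adjusted p = 0.0453), -1.98 on leaving out responder replicate 1 and -0.64 on leaving out responder replicate 2. It was -0.76 with the replicate number as a block and -0.50 with limma-voom.

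**Figure D1:**
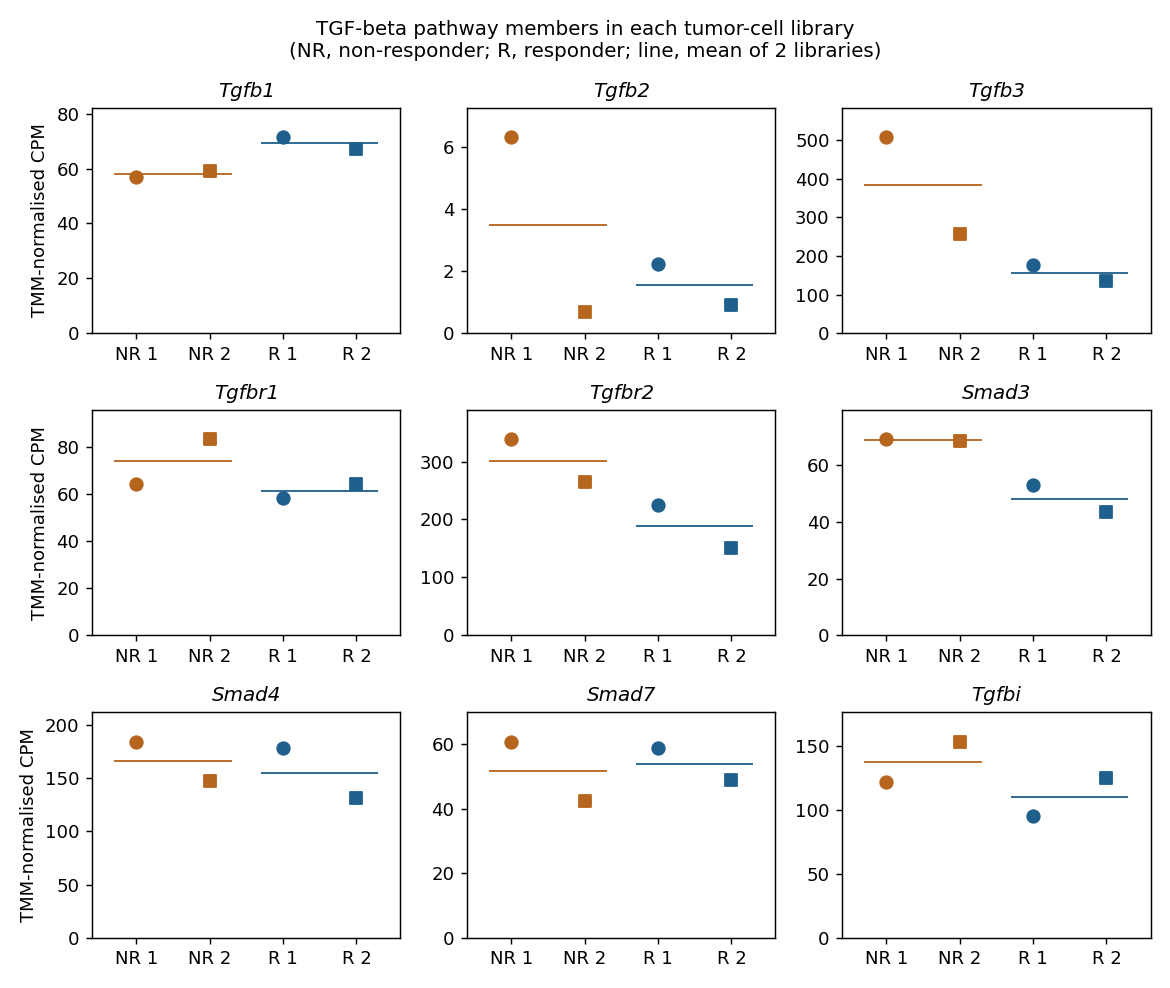
TMM-normalised CPM (vertical axes, each from 0) of the 9 members in the 4 libraries (horizontal axes; circles are replicate 1, squares replicate 2, lines are group means of 2 libraries). Tgfb3 ran from 134 to 509 CPM with both responder libraries lowest, while Smad4, Smad7, Tgfb2 and Tgfbi had groups that overlapped.

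Levels of different genes were compared after division by exon length, as CPM per kilobase. This length covers all annotated exons of a gene, 5042 bases for Tgfb1 and 3383 for Tgfb3. It can exceed that of the transcripts in use, which was not measured. Shares, ratios and ranks between genes are therefore approximate, and the level of a gene with unused exons is understated. Among the ligands Tgfb3 had 150.4 and 76.1 CPM per kilobase in non-responder and 52.3 and 39.7 in responder replicates 1 and 2. Tgfb1 had 11.3 and 11.7 against 14.2 and 13.3 CPM per kilobase, and Tgfb2 had 0.116 to 1.09. Tgfb3 transcripts were therefore 92.4% and 86.5% of the summed ligand level in non-responder and 78.2% and 74.7% in responder libraries. The sum of the 3 ligands was 163 and 88.0 CPM per kilobase in non-responder and 66.9 and 53.1 in responder libraries. The ratio of Tgfb3 to Tgfb1, in which the scaling between libraries cancels, was 13.3 and 6.48 in non-responder and 3.68 and 2.98 in responder replicates 1 and 2. These shares and ratios were chosen after the values were seen and are given without a test.

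**Figure D2:**
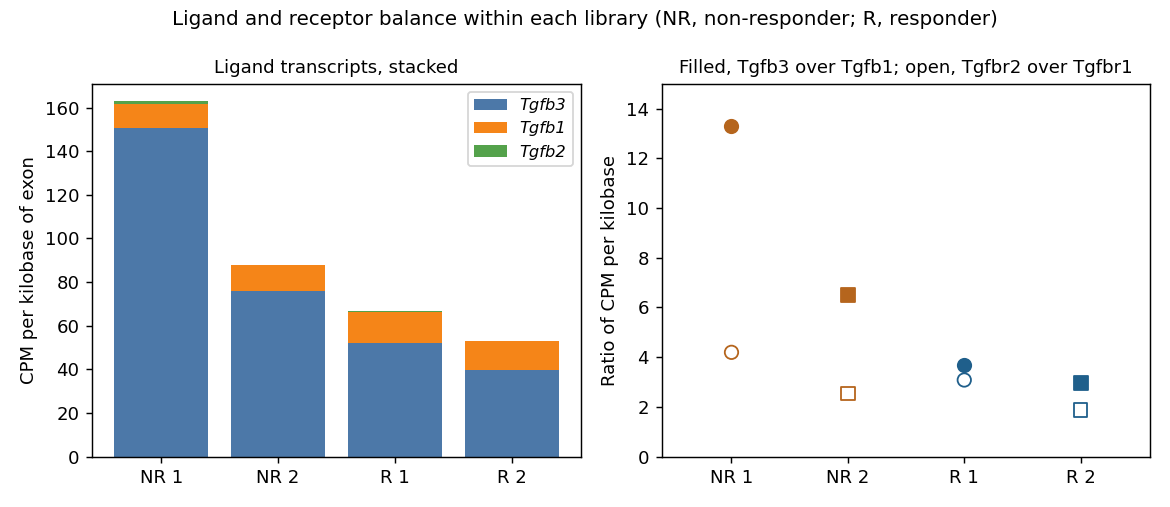
Left, CPM per kilobase of exon of the 3 ligand genes stacked for each library (NR, non-responder; R, responder; 1 and 2, the replicates). Right, ratio of Tgfb3 to Tgfb1 (filled) and of Tgfbr2 to Tgfbr1 (open) in the same libraries, circles for replicate 1 and squares for replicate 2. The Tgfb3 to Tgfb1 ratio was 13.3 and 6.48 in non-responder and 3.68 and 2.98 in responder libraries, while the receptor ratios of the groups overlapped.

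In the order of mean level over the 4 libraries (n = 4, SD), Tgfb3 stood first at 79.6 ± 49.5 CPM per kilobase. Smad4 followed at 43.2 ± 6.77, then Tgfbi at 32.8 ± 6.33 and Tgfbr2 at 29.9 ± 9.56, and neighbours among these 4 had ranges that overlapped. Tgfb1 at 12.6 ± 1.34, Smad7 at 11.6 ± 1.92, Smad3 at 10.6 ± 2.27 and Tgfbr1 at 10.3 ± 1.66 formed a lower step, again with overlapping ranges. Every library placed the upper 4 above the lower 4, since the lowest value of the upper step was 18.4 CPM per kilobase (Tgfbr2 in responder replicate 2) and the highest of the lower step was 14.2. Tgfb2 was last at 0.437 ± 0.453 CPM per kilobase. The highest library exceeded the lowest by 9.41-fold for Tgfb2, 3.79-fold for Tgfb3 and 2.24-fold for Tgfbr2, and by 1.25-fold to 1.62-fold for the other members.

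The type II receptor gene Tgfbr2, whose product binds the ligand first, was lower in both responder libraries. It lies on chromosome 9 from 116084293 to 116175360 (minus strand, ENSMUSG00000032440). It had 338 and 265 CPM among non-responders, against 225 and 151 CPM among responders. The groups did not overlap, and responder replicate 2 was lowest. The level was 1.605-fold lower (log2 fold change -0.68, SE 0.25) and did not pass (unadjusted p = 0.0258, edgeR adjusted p = 0.746). With single libraries left out the log2 fold change was -0.49 on leaving out non-responder replicate 1, -0.85 on leaving out non-responder replicate 2, -1.005 on leaving out responder replicate 1 and -0.42 on leaving out responder replicate 2.

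The type I receptor gene Tgfbr1, which encodes the kinase that phosphorylates SMAD2 and SMAD3, differed less. It lies on chromosome 4 from 47353222 to 47414931 (plus strand, ENSMUSG00000007613). It had 64.4 and 83.2 CPM among non-responders, against 58.3 and 64.1 CPM among responders. The groups did not overlap, but only narrowly, as non-responder replicate 1 and responder replicate 2 were nearly equal. The log2 fold change was -0.27 (SE 0.19, edgeR adjusted p = 0.857) and ranged from -0.44 to -0.07 when each library was left out. Per kilobase, Tgfbr2 exceeded Tgfbr1 4.20-fold and 2.54-fold in non-responder and 3.08-fold and 1.88-fold in responder replicates 1 and 2, so the receptor balance overlapped between groups.

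Among the SMAD genes, Smad3 was lower in both responder libraries, whereas Smad4 and Smad7 had groups that overlapped. Smad3, the receptor-activated transducer of the TGF-beta branch, lies on chromosome 9 from 63646767 to 63757994 (minus strand, ENSMUSG00000032402). It had 69.2 and 68.7 CPM among non-responders, against 53.0 and 43.4 CPM among responders. The non-responder libraries were almost equal and both responder libraries were below them. The level was 1.43-fold lower (log2 fold change -0.52, SE 0.17) and did not pass (unadjusted p = 0.0182, edgeR adjusted p = 0.728). With each library left out the log2 fold change ranged from -0.67 to -0.38.

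Smad4 (ENSMUSG00000024515, chromosome 18 from 73639009 to 73703780, minus strand) encodes the partner that SMAD2 and SMAD3 share with the bone morphogenetic protein branch. It had 185 and 148 CPM among non-responders, against 178 and 132 CPM among responders. Replicate 1 was above replicate 2 in both groups, and the groups overlapped. Its log2 fold change of -0.10 (SE 0.22, edgeR adjusted p = 0.952) turned to 0.07 on leaving out non-responder replicate 1 and to 0.10 on leaving out responder replicate 2. Smad7 (ENSMUSG00000025880, chromosome 18 from 75367529 to 75395935, plus strand) encodes the inhibitory member that blocks the type I receptor. It had 60.8 and 42.2 CPM among non-responders, against 58.7 and 48.8 CPM among responders. Here too the groups overlapped. Its log2 fold change of 0.06 (SE 0.22, edgeR adjusted p = 0.973) turned to -0.18 on leaving out non-responder replicate 2 and to -0.08 on leaving out responder replicate 1.

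Tgfbi, which encodes a secreted matrix protein induced by TGF-beta, lies on chromosome 13 from 56609523 to 56639562 (plus strand, ENSMUSG00000035493). It had 122 and 153 CPM among non-responders, against 94.8 and 125 CPM among responders. The groups overlapped, with non-responder replicate 1 just below responder replicate 2. The log2 fold change was -0.32 (SE 0.21, edgeR adjusted p = 0.85) and ranged from -0.53 to -0.14 with each library left out. Tgfbi is also a gene of macrophages. The 10 macrophage and monocyte markers summed to 86.5 and 231 CPM among non-responders, against 13.9 and 82.7 CPM among responders, highest and lowest in the same libraries as Tgfbi. All 10 had a lower mean in responders and none was at 0 reads. Cd68 hardly differed, with 9.13 and 10.0 against 9.47 and 9.21 CPM (log2 fold change -0.034). The part of these markers' cells in the values of Tgfbi was not tested.

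Counted over the list, 0 of 9 members passed edgeR's test, where 0% of all tested genes passed. DESeq2 called 1 member, Tgfb3, where it called 0.45% of all tested genes, and with limma-voom the number called was 0. Of the 9, Tgfb3, Tgfbr2 and Smad3 had an unadjusted p under 0.05 (3 members, 0 higher and 3 lower), where 2.57% of tested genes were higher, 3.63% lower and 6.21% on either side at that p. Groups did not overlap for 5 of 9 members, 4 lower and 1 higher, where this was so for 36.5% of tested genes, 17.7% lower and 18.8% higher. In all, 7 members had a log2 fold change below 0 and 2 above it, and the median was -0.32, where all tested genes had a median of -0.0071 with 51.1% below 0 and 48.9% above it. The members were not chosen independently of earlier results on these libraries, so these counts describe them and test nothing.

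**Figure D3:**
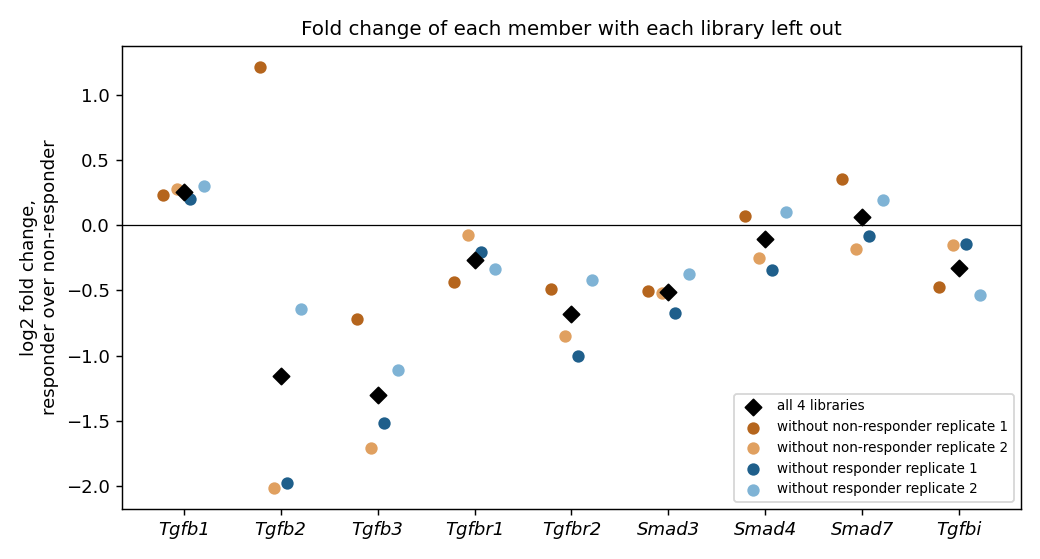
Log2 fold change of each member, responder over non-responder (vertical axis), with all 4 libraries (black diamonds) and with each library left out in turn (colored circles). Tgfb1, Tgfb3, Tgfbr1, Tgfbr2, Smad3 and Tgfbi kept their sign in these fits, whereas Tgfb2, Smad4 and Smad7 changed sign.

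Genes that hold ligands latent or activate them were mostly a little lower in responders. Of 14 listed genes 12 were tested, 9 with a log2 fold change below 0 and 3 above it, at a median of -0.31, which ran from -0.50 on leaving out responder replicate 1 to -0.11 on leaving out responder replicate 2. None of them passed with edgeR, DESeq2 or limma-voom, and 3 had an unadjusted p under 0.05 with edgeR, all lower. Of all tested genes 6.21% had such a p, 3.63% lower and 2.57% higher. Ltbp3, a latent TGF-beta binding protein, had 148 and 161 CPM among non-responders, against 108 and 110 CPM among responders (log2 fold change -0.51, SE 0.17). Itgb8, the beta chain of an integrin that activates latent TGF-beta, had 74.5 and 73.9 against 58.3 and 47.8 CPM (log2 fold change -0.48, SE 0.17). Lrrc32, which tethers latent TGF-beta on regulatory T cells and platelets, had only 1.497 and 0.63 against 0.40 and 0.16 CPM (log2 fold change -1.90, SE 0.70), the last from 3 reads. Its log2 fold change was -1.15 on leaving out non-responder replicate 1 and -2.71 on leaving out responder replicate 1. These 3 genes, named for their p, were the only ones of the 12 tested whose groups did not overlap. This was so for 36.5% of all tested genes. Ltbp1 had 121 and 187 against 135 and 90.0 CPM and Furin, the protease that cleaves the propeptide, 113 and 148 against 139 and 143 CPM, both with overlap. Thbs1, a thrombospondin that activates latent TGF-beta, was high in both replicates 1 (75.1 and 72.8 CPM) and low in both replicates 2 (25.5 and 28.7 CPM).

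Receptor partners and other SMAD genes held no gene that passed. Of 9 receptor partners 6 had a log2 fold change below 0, with a median of -0.089, and none passed with edgeR, DESeq2 or limma-voom. The median was -0.34 on leaving out responder replicate 1 and 0.0032 on leaving out responder replicate 2. Eng, an accessory receptor best known from endothelium, had 4.97 and 6.28 against 3.12 and 3.40 CPM (log2 fold change -0.79, SE 0.32, unadjusted p = 0.0406). The 8 endothelial markers, Eng among them, summed to 30.4 and 35.6 CPM among non-responders, against 17.2 and 21.1 CPM among responders. Pecam1 was the largest part of that sum, with 17.8 and 25.5 against 6.35 and 11.6 CPM. By mean, 6 of 8 were lower, but only 4 could be tested. Of these, Pecam1 and Eng were lower, and Cdh5 and Egfl7 were higher (log2 fold change 0.31 and 0.71). Tie1 and Cldn5 had 0 reads in every library but non-responder replicate 1. The part of endothelial cells in the value of Eng was not tested. Acvrl1, an endothelial type I receptor, had 6.57 and 15.9 against 8.53 and 5.50 CPM. Tgfbr3, the co-receptor betaglycan, had 247 and 325 against 319 and 219 CPM and overlapped. Of the other SMAD genes 4 were tested, 3 with a log2 fold change below 0 and 1 above it, and none passed with edgeR, DESeq2 or limma-voom. Their median of -0.31 moved to -0.11 on leaving out non-responder replicate 1. Smad2, the other receptor-activated SMAD of this branch, had 104 and 78.9 against 100.3 and 85.0 CPM (log2 fold change 0.02, SE 0.20). Smad1 had 57.8 and 44.5 against 41.5 and 39.9 CPM and Smad5 146 and 114 against 112 and 102 CPM. These transducers of the bone morphogenetic protein branch had groups that did not overlap and unadjusted p of 0.115 and 0.178 with edgeR. A lack of overlap was seen for 36.5% of all tested genes, 17.7% lower in responders.

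Regulators of SMAD proteins had a median log2 fold change of -0.084 over 12 tested genes, 8 below 0 and 4 above it, and 0 had an unadjusted p under 0.05 with edgeR, DESeq2 or limma-voom. The median turned to 0.089 on leaving out non-responder replicate 1 and to 0.027 on leaving out responder replicate 2. The co-repressor genes Ski and Skil had 157 and 130.1 against 132 and 108 CPM, and 170.2 and 115 against 129 and 94.7 CPM. Smurf2, a ubiquitin ligase for SMADs and receptors, had 185 and 155 against 191 and 153 CPM. Pmepa1, a target that also restrains the pathway, had 276 and 285 against 248 and 272 CPM (log2 fold change -0.11, SE 0.18).

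Target genes of the pathway were mostly lower in responders, though not all. Of 22 genes counted 19 were tested, 14 with a log2 fold change below 0 and 5 above it, at a median of -0.37, which ran from -0.47 on leaving out responder replicate 1 to -0.24 on leaving out responder replicate 2. None passed edgeR's test or limma-voom, and DESeq2 called 2, Col1a1 and Postn, where it called 0.45% of all tested genes. At an unadjusted p under 0.05 with edgeR there were 5, of which 4 were lower and 1, Junb, higher. Of all tested genes 3.63% were lower and 2.57% higher at that p. Junb, an AP-1 subunit that TGF-beta and many other stimuli induce, had 96.7 and 130 against 142 and 197 CPM (log2 fold change 0.58, SE 0.23).

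Among the targets Col1a1, Postn and Fn1, which encode matrix proteins, had lower values in both responder libraries than in either non-responder library. None of these passed edgeR's test. Of the 19 tested targets, 9 in all were lower without overlap and 2 were higher without overlap. For all tested genes these shares were 17.7% and 18.8%. Col1a1, a fibrillar collagen chain, had 240.1 and 278 against 112 and 92.8 CPM, 2.53-fold lower (log2 fold change -1.34, SE 0.20, edgeR adjusted p = 0.221). Postn, the matricellular protein periostin, had 127 and 57.7 against 16.8 and 19.1 CPM (log2 fold change -2.36, SE 0.40, edgeR adjusted p = 0.437), and Fn1, fibronectin, 14968 and 13120 against 11277 and 7076 CPM (log2 fold change -0.61, SE 0.32). Snai2, a transcription factor of mesenchymal cells, had 19.6 and 22.3 against 11.7 and 13.3 CPM, and Spsb1, which targets the type II receptor for degradation, 160 and 121 against 98.5 and 103 CPM. With a library left out, edgeR called Postn in all 4 fits (adjusted p from 2.06e-08 to 0.00313, log2 fold change -1.68 on leaving out non-responder replicate 1 and -2.83 to -2.28 in the other 3) and Col1a1 in all but the fit that left out responder replicate 2 (adjusted p from 0.00193 to 0.0261). Ccn2, connective tissue growth factor, was scarce, with 1.98 and 4.48 against 6.10 and 1.99 CPM, and Tagln, Adam12 and Lmcd1 were too low to be tested.

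Fibroblast and leukocyte markers mostly had lower means in responders. Of the 12 fibroblast markers, Col1a1 and Postn among them, 11 were tested, 9 with a log2 fold change below 0, and none was at 0 reads. Their median was -1.18, where that of the members was -0.32. With edgeR 0 passed and 7 had an unadjusted p under 0.05, all lower, as had 3.63% of all tested genes. Groups did not overlap for 8, all lower, and for 17.7% of all tested genes in that direction. DESeq2 called 5, Col1a1, Dpt, Lum, Pdgfrb and Postn, where it called 0.45% of all tested genes. The sum of the 12 markers, most of it Col3a1, was highest in non-responder replicate 2, as were 7 of them. Pdgfra, Pdgfrb and Postn were highest in non-responder replicate 1, as were Tgfb3 and Tgfbr2. Col1a2 and Col6a3 were highest in responder replicate 1. Each of the 10 leukocyte markers had a lower mean in responders, and they summed to 32.1 and 100.1 against 2.28 and 37.0 CPM, with Tyrobp at 0 reads in responder replicate 1. All 10 were highest in non-responder replicate 2 and lowest in responder replicate 1, whereas Tgfb3 and Tgfbr2 were lowest in responder replicate 2. None of the 10 had an unadjusted p under 0.05 with edgeR. The 7 T-cell markers summed to 2.20 CPM at most, and Cd3d and Cd8a had 0 reads in replicate 1 of both groups. The part of these cells in the members' values was not tested, nor was whether MC38 cells themselves made the fibroblast marker transcripts. Markers of colon epithelium were near absent: 7 of 9, Epcam, Krt8, Krt18 and Krt19 among them, were too low to be tested, Krt20 had 0 reads in every library, which allows up to 0.138 to 0.163 CPM (3 reads, counting error only), and Cdh1 had at most 2.47 CPM.

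**Figure D4:**
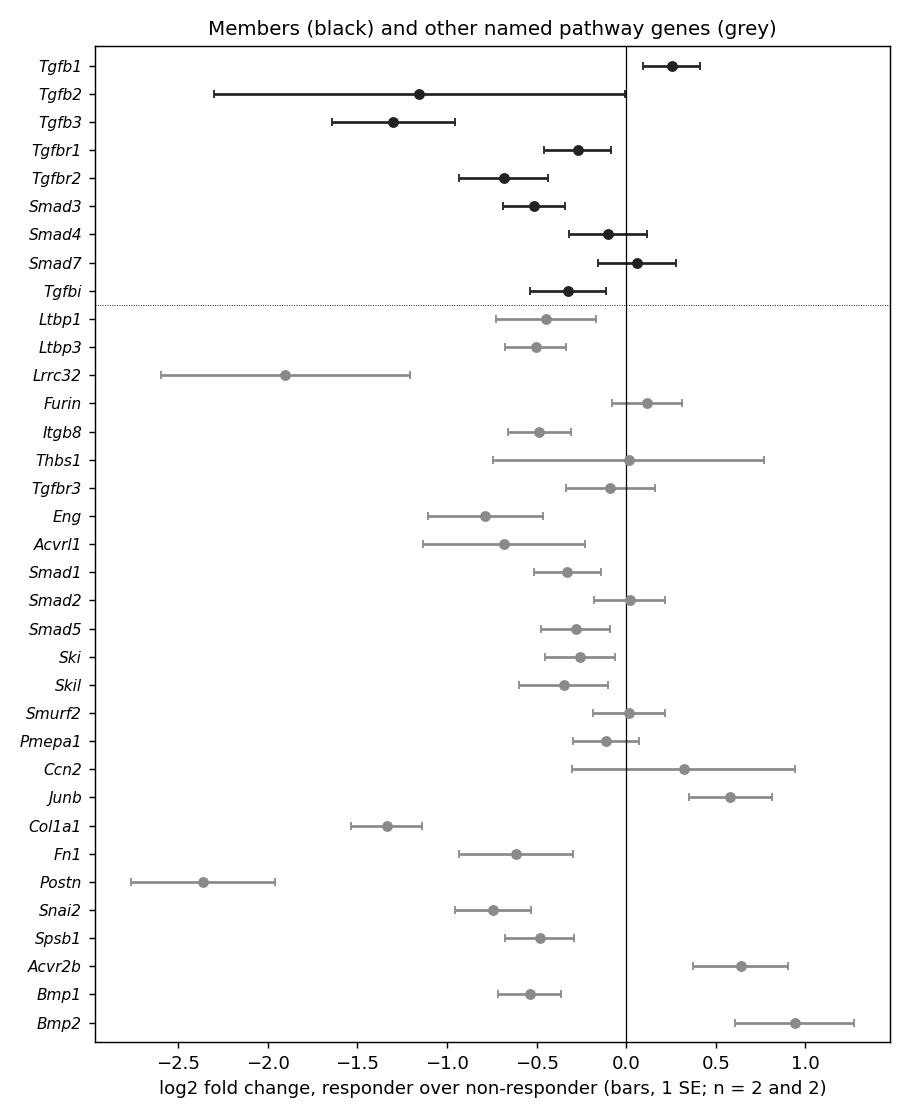
Log2 fold change, responder over non-responder (horizontal axis), with bars of 1 SE, for the 9 members (black) and 26 other pathway genes (grey) from the edgeR fit of 2 against 2 libraries. Postn, Lrrc32, Col1a1 and Tgfb3 lie farthest to the left at -2.36 to -1.30 and Bmp2 and Acvr2b farthest to the right at 0.94 and 0.64, and none passed the test over all genes.

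Genes of like pattern were listed for the 3 members that varied most, as those with the smallest Euclidean distance between log2 (CPM + 0.5) levels centred over the 4 libraries, among tested genes with a mean of at least 5 CPM over the libraries, predicted genes and unnamed clones left out. For Tgfb3 they were Mef2c, a transcription factor of muscle and other mesenchymal cells (distance 0.145), Ccdc122 (0.198) and Sertad4 (0.264). Mef2c had 43.4 and 18.8 CPM among non-responders, against 13.98 and 10.5 CPM among responders. For Tgfbr2 they were Ankrd33b (0.0799), the platelet-derived growth factor receptor gene Pdgfra (0.0873) and Rnf157 (0.103). Pdgfra, which is also among the fibroblast markers, had 635 and 536 against 424 and 293 CPM. For Tgfb2 they were the calcium pump gene Atp2b4 (0.31), the transcription factor gene Klf5 (0.425) and Zfhx4 (0.636). With 4 libraries many genes fall in the same order, so likeness is a description only.

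Total counts were 18447041 to 21754063 per library, and the common biological coefficient of variation was 0.216. Tgfb1, Tgfb3, both receptor genes, Tgfbi and the 3 SMAD genes each had at least 830 reads in every library, so counting error was small for them, while Tgfb2 had 15 reads in non-responder replicate 2.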

How the data were processed

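Polyadenylated RNA of sorted MC38 tumor cells was sequenced in strand-specific libraries, per the labels' protocols. STAR is named as the aligner and mm10 (GRCm38) as the build, per the submitters' processing notes; its version is not given in the sources used here. Raw counts per gene were deposited, made with featureCounts 1.6.1 at strand setting 2 on Ensembl release 91, per the file headers. Reads that map to several places were not asked for in that command. Of 53379 identifiers 53274 matched a symbol. Where identifiers shared a symbol, the 1 with the most reads was used.

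The 4 libraries, grouped by title, were fitted with edgeR 4.0.16 in R 4.3.3. The filter filterByExpr with a minimum count of 10 kept 13792 genes, TMM factors were 0.952 to 1.036, and a robust quasi-likelihood test had the group as its only term. P-values were adjusted by Benjamini-Hochberg over all tested genes with a threshold of 0.05. Standard errors are absolute log2 fold changes over the root of F. No pair of libraries was near-identical (chi-square per degree of freedom 22.5 to 66.3). Alternatives were RLE and upper-quartile factors, library size alone, DESeq2 1.42.0, limma-voom (limma 3.58.1), no filter, a filter of 5 CPM in 2 libraries, a replicate block and each library left out. The scripts were tested on simulated data.

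The members and lists were chosen with earlier results of these data known. Named beside the members were list genes with an unadjusted p under 0.05, the 2 of smallest p per list and 12 set genes; 1 further gene that the rule takes is not reported here and was left out of its list; within-library ratios, marker genes and untested genes were named after their values were seen.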

Additional observations from a re-analysis of the deposited data

How the results depend on the processing

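With 2 libraries per group the calls depended on the tool and on single libraries. No gene passed with edgeR under TMM, RLE or upper-quartile factors, library size alone or the filter of 5 CPM, nor with limma-voom. DESeq2 called 62 genes, edgeR without a filter 212, and edgeR with a replicate block 32. With a library left out edgeR called 41 to 516 genes. Of the members, DESeq2 and edgeR without a filter called 1, Tgfb3, and the leave-one-out fits called 0 to 2, the most without non-responder replicate 2. With the replicate block no member was called (Tgfb3 edgeR adjusted p = 0.0533). Same-numbered libraries deviated together (correlation 0.373), but the labels do not say that a number marks a shared animal or day, so the numbers are not taken as pairs. The members' median of -0.32 stayed between -0.44 and -0.25 with a library left out.

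No named gene changed direction under another scaling, tool, filter or the replicate block. With a library left out, 10 genes did: log2 fold changes ran from -2.01 to 1.21 for Tgfb2, -0.34 to 0.10 for Smad4, -0.18 to 0.35 for Smad7, -0.17 to 0.24 for Smad2, -0.39 to 0.16 for Tgfbr3, -1.18 to 0.0932 for Acvrl1, -0.70 to 1.03 for Ccn2, -0.0626 to 0.32 for Furin, -0.82 to 1.00 for Thbs1 and -0.16 to 0.17 for Smurf2. The cause was not tested. Of the fibroblast markers, 2 had a log2 fold change above 0 with all 4 libraries and 1 with limma-voom or the replicate block. On leaving out responder replicate 1 the number was 0. Tgfb2 was not testable under the filter of 5 CPM in 2 libraries. A left-out library leaves 1 in its group, which is then assumed to vary like the other group.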

Other observations

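Genes of the related activin and bone morphogenetic protein branches gave further values. Of 14 listed genes 10 were tested, 7 with a log2 fold change below 0 and 3 above it, at a median of -0.17 that turned to 0.059 on leaving out non-responder replicate 1, and none passed with edgeR, DESeq2 or limma-voom. Bmp1, a protease that processes procollagens and latent TGF-beta binding proteins, had 159 and 174 CPM among non-responders, against 117 and 111 CPM among responders (log2 fold change -0.54, SE 0.17, edgeR unadjusted p = 0.0147). Bmp2, a ligand of the bone morphogenetic protein branch, had 3.82 and 5.79 against 10.955 and 7.49 CPM (log2 fold change 0.94, SE 0.33), and passed only without non-responder replicate 2 (edgeR adjusted p = 0.0431, log2 fold change 1.27). Acvr2b, an activin type II receptor, had 5.46 and 5.47 against 8.97 and 8.06 CPM (log2 fold change 0.64, SE 0.27, edgeR unadjusted p = 0.0430). In these 3 genes, named for their p, the groups did not overlap. That held for 5 of the 10 tested genes of the list and for 36.5% of all tested genes.

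Inhba, whose product forms activin A and signals through SMAD2 and SMAD3 as TGF-beta does, had 809 and 505 CPM among non-responders, against 595 and 574 CPM among responders, with groups that overlapped. Divided by exon length, its level was 127 and 79.0 CPM per kilobase among non-responders, against 93.1 and 89.8 among responders. This was above Tgfb3 in both responder libraries, slightly above it in non-responder replicate 2 and below it in non-responder replicate 1. Inhbb, Fst, Bmp4 and Gdf15 were too low to be tested.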
